A study of Mus musculus with 10 samples.

Results

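The genes followed here are 9 basic helix-loop-helix (bHLH) transcription factor genes that set neuronal and oligodendrocyte fates, namely Neurog1, Neurog2, Neurog3, Neurod1, Neurod2, Atoh1, Olig1, Olig2 and Olig3. The rule that picks them is a list of symbols and uses no measured value, although the list was drawn up with earlier results of these data known. They make up 9 of the 24500 genes counted in mouse E14 embryonic stem (ES) cells. Chromatin immunoprecipitation and sequencing (ChIP-seq) was performed for H3K27me3 and for EZH2 in wild-type cells, called control, and in cells labelled as an Ezh2 knock-out of exon 14, called ex14D-Ezh2, in 2 libraries of each genotype for either antibody and in a single input library of each genotype. Both genotypes were E14 ES cells of the strain listed as 12910la, an undifferentiated line in which none of the 9 factors is a known marker. In ex14D-Ezh2 cells, CRISPR-Cas9 mutations shift the reading frame in exon 14, so that the EZH2 isoform that skips this exon is the one still made. The study's methods describe targeted colonies, and the labels do not give how many lines or cultures stand behind the 2 libraries of a group, so the p-values below measure the spread between libraries, which may be technical.

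Proneural bHLH factors bind DNA as dimers with E proteins and switch on the neuronal programme, while Notch signalling, through Hes repressors, and the Id proteins hold them back. The Olig proteins are related factors that mostly repress transcription and pattern the neural tube and the oligodendrocyte lineage. In ES cells such lineage genes are textbook targets of Polycomb repressive complex 2 (PRC2), whose catalytic subunit EZH2 methylates histone H3 at lysine 27, and their promoters are rich in the CpG dinucleotides to which PRC2 is recruited.

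The 9 genes lie on 7 chromosomes of GRCm38.p6, the RefSeq release of the mm10 build that the study used. The neurogenins are at chr13:56250478-56252180 (Neurog1, minus strand), chr3:127633136-127635631 (Neurog2, plus strand) and chr10:62133090-62134763 (Neurog3, plus strand). The NeuroD genes and Atoh1 are at chr2:79452637-79456636 (Neurod1, minus strand), chr11:98325417-98329645 (Neurod2, minus strand) and chr6:64729125-64731245 (Atoh1, plus strand). Olig1 and Olig2 are neighbours on the plus strand, at chr16:91269769-91271939 and chr16:91225550-91228677, with start sites 44219 bp apart, and Olig3 is at chr10:19356539-19358604 on the plus strand. Of the 24500 counted genes, 23526 were placed on this build. No other placed gene starts within 1 kb of any of the 9 start sites. A read in a 1 kb promoter window centred on the start site thus belongs to 1 of the placed genes.

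The 250 bp upstream of the start site are shown for the members at the ends of the range of H3K27me3 and CpG content, taken from RefSeq on GRCm38.p6 and written 5′ to 3′ with every CG dinucleotide in capitals. Neurog1 has the highest H3K27me3 count in control cells and Olig2 the largest change, Neurod1 has the lowest count, and Olig3 has the fewest CpGs.
Neurog1 (GRCm38.p6, chr13:56252181-56252430, minus strand): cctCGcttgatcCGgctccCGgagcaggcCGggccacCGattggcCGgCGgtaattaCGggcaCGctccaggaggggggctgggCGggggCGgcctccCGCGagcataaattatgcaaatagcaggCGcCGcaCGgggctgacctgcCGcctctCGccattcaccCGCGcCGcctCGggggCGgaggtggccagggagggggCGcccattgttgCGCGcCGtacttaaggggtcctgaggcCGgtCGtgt
Olig2 (GRCm38.p6, chr16:91225300-91225549, plus strand): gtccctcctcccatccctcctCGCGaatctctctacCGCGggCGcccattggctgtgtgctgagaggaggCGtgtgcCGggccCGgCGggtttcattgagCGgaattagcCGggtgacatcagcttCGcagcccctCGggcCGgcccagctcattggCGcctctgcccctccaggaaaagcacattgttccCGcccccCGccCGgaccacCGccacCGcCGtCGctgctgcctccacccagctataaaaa
Neurod1 (GRCm38.p6, chr2:79456637-79456886, minus strand): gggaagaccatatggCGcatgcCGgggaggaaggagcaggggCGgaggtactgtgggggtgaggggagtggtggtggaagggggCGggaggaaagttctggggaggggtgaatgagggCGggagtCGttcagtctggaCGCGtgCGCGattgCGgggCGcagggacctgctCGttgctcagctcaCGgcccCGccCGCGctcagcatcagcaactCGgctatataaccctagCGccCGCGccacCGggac
Olig3 (GRCm38.p6, chr10:19356289-19356538, plus strand): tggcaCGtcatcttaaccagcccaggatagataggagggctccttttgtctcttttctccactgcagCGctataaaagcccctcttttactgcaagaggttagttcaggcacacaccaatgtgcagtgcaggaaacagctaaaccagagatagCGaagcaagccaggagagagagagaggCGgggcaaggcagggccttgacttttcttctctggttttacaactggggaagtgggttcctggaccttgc
These windows held 29 CpGs at Neurog1, 22 at Olig2, 22 at Neurod1 and 4 at Olig3, against a median of 6 over 27025 promoters. Among the remaining members, Neurog3 had 18 CpGs, Atoh1 had 14, Neurod2 had 11 and Neurog2 had 8, so that 7 of the 8 members with an entry lay above the median, and Olig1 has no entry. The E-box, CANNTG, which is the motif that bHLH dimers bind and reads the same on both strands, was present in 4 of the 8 windows (3 copies at Neurod2 and 1 each at Neurog3, Neurod1 and Olig3), and in 66.0% of all promoters of the same length. CpG content did not order the members by mark, since Neurod1, with 22 CpGs, had the lowest H3K27me3 promoter count.

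On gene rows, which are 1 kb promoter windows, the H3K27me3 libraries held 594289 and 937207 reads in control and 1450937 and 1248018 in ex14D-Ezh2. These were 5.65 and 5.98% of all counted reads in control and 7.58 and 6.86% in ex14D-Ezh2. The inputs held 409371 and 416778 reads on gene rows. The EZH2 libraries held 13628137 to 18403892 reads on gene rows, counted over genes, since their counts follow gene length. In the EZH2 tables, whole chromosome stretches are listed at 0 in all 4 libraries, among them 1099 genes on chromosome 10 around Neurog3 and Olig3, 1352 on chromosome 11 around Neurod2 and 301 on chromosome 16 around Olig1 and Olig2. Those 5 members are therefore listed at 0 and have no EZH2 count comparison here. As a check of the ES cell label, 1 of 9 pluripotency gene promoters (Klf4) reached 2-fold H3K27me3 over input in each control library and none of the 9 in both ex14D-Ezh2 libraries, with log2 values over input from -4.58 to 1.54 and from -3.38 to 0.19. Of 6 fibroblast marker promoters, 3 were marked in control cells and 1 in ex14D-Ezh2 cells, between -1.39 and 2.71 and between -2.83 and 3.56. These are levels of a chromatin mark, not of transcripts.

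In control ES cells the promoters of 8 of the 9 genes carried H3K27me3 at 2-fold or more over input in each library, Neurod1 being the exception, against 2776 of the 24500 promoters (11.3%). In ex14D-Ezh2 cells all 9 did, against 2240 promoters. The 4 members that reached 8-fold over input in each control library were Neurog1, Neurog3, Neurod2 and Olig2, a class that held 407 promoters (1.66%), and 7 members were in that class in ex14D-Ezh2 cells, against 631 promoters (2.58%). These classes rest on the input of each genotype, which was lower in ex14D-Ezh2 at every member except Neurog3. The 8-fold class was not recounted on a shared input. Levels are given below as reads per 1000000 reads on gene rows (CPM), with the input CPM beside them.

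Neurog1 and Neurog2 specify neuronal precursors in cranial ganglia, spinal cord and cortex. Neurog1 had 747 and 595 CPM of H3K27me3 in control and 1195 and 1538 in ex14D-Ezh2, with inputs of 61.1 and 43.2. Neurog2 had 655 and 455 CPM in control and 1046 and 1166 in ex14D-Ezh2, with inputs of 68.4 and 38.4. At both genes each ex14D-Ezh2 library was above both control libraries. Neurog3, which specifies the endocrine cells of the pancreas and gut, had 419 and 417 CPM in control and 436 and 321 in ex14D-Ezh2, with inputs of 29.3 and 38.4. The Neurog3 groups overlapped, and its ex14D-Ezh2 libraries lay on either side of the control pair.

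Neurod1 acts after the neurogenins in neurons and in pancreatic endocrine cells, and Neurod2 in maturing cortical neurons. Neurod1 had 72.4 and 109.9 CPM in control and 106 and 119 in ex14D-Ezh2, with inputs of 44.0 and 35.99. Neurod2 had 687 and 590.1 CPM in control and 1026 and 1203 in ex14D-Ezh2, with inputs of 51.3 and 48.0. The Neurod2 groups did not overlap, whereas the Neurod1 groups did, and at Neurod1 both genotypes were within a few fold of input. Atoh1, which is needed for hair cells, cerebellar granule neurons and secretory cells of the gut, had 427 and 362 CPM in control and 519 and 551 in ex14D-Ezh2, with inputs of 53.7 and 45.6. The Atoh1 groups did not overlap, with ex14D-Ezh2 above control.

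Olig2 specifies motor neurons and oligodendrocyte precursors, Olig1 acts in oligodendrocyte maturation and Olig3 patterns dorsal interneurons. Olig1 had 358 and 249 CPM in control and 374 and 298 in ex14D-Ezh2, with inputs of 66.0 and 35.99. Olig2 had 665 and 501 CPM in control and 1179 and 1378 in ex14D-Ezh2, with inputs of 61.1 and 38.4. Olig3 had 195 and 261 CPM in control and 292 and 243 in ex14D-Ezh2, with inputs of 68.4 and 43.2. Olig2 was higher in both ex14D-Ezh2 libraries than in either control library, while the groups overlapped at Olig1 and Olig3. Thus in CPM, 5 members did not overlap and were higher in ex14D-Ezh2 (Neurog1, Neurog2, Neurod2, Atoh1 and Olig2), 4 overlapped and none was lower, where 12.7% of 23599 promoters did not overlap and were higher.

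**Figure D1:**
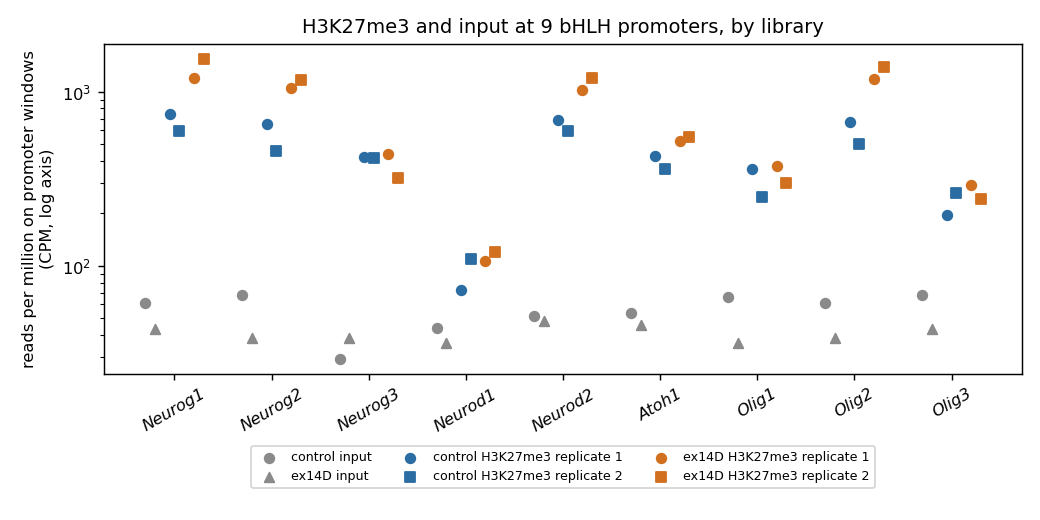
H3K27me3 at the 9 promoters, in CPM on a log axis (vertical) for each gene (horizontal axis); blue and orange points are single control and ex14D-Ezh2 libraries, circles for replicate 1 and squares for replicate 2, and grey points are the inputs. Neurog1, Neurog2, Neurod2 and Olig2 lie above 1000 CPM in both ex14D-Ezh2 libraries and at most 747 in control, and Neurod1 is the lowest in both genotypes.

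By mean CPM in control cells the order was Neurog1, Neurod2, Olig2, Neurog2, Neurog3, Atoh1, Olig1, Olig3 and Neurod1, at ranks 37, 55, 92, 119, 318, 386, 701, 1079 and 2799 of the 24500 promoters. Neighbours in this order did not overlap only between Neurog2 and Neurog3, between Atoh1 and Olig1 (362 against 358 CPM at the nearest libraries) and between Olig3 and Neurod1. In ex14D-Ezh2 cells the order was Neurog1, Olig2, Neurod2, Neurog2, Atoh1, Neurog3, Olig1, Olig3 and Neurod1, and the first 4 overlapped in a chain while Atoh1 stood below them. Neurog3 moved from rank 318 to rank 568, and Neurod1 from 2799 to 1924. The promoters whose 4 H3K27me3 values were nearest to the members' mean profile, by Euclidean distance on log2(CPM + 1), were Ascl2 (0.0951), Sox7 (0.105) and Helt (0.144), of which Ascl2 and Helt are themselves bHLH genes. Ascl2 had 390.4 and 370.2 CPM in control and 527 and 571 in ex14D-Ezh2. Atoh1, at a distance of 0.152, was the member nearest to that profile and Neurod1, at 4.35, the farthest.

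Over the input library of the same genotype, the log2 ratio, with 1 CPM added to both, had a median over the members of 2.98 in control and 3.52 in ex14D-Ezh2 cells. For Olig2 it was 3.42 and 3.02 in control and 4.91 and 5.13 in ex14D-Ezh2, a mean of 9.32-fold and 32.4-fold over input. Neurog1 went from 10.8-fold to 30.7-fold and Neurog2 from 7.87-fold to 28.1-fold. Neurog3 went the other way, from 13.8-fold to 9.52-fold. Neurod1 was at 0.71 and 1.30 in control and 1.53 and 1.70 in ex14D-Ezh2. These ratios rest on 206 input reads over the 9 windows in control (12 to 28 per gene) and 153 in ex14D-Ezh2 (15 to 20 per gene), and input CPM was lower in ex14D-Ezh2 at every member except Neurog3. With the mean of both inputs in place of each genotype's own, the medians were 3.33 in control and 3.43 in ex14D-Ezh2. Most of the gap between the medians thus went with the separate inputs. With each genotype's own input, the median fell on Neurog2 in control and on Atoh1 in ex14D-Ezh2, so this gap is not the change of any 1 gene. The change of each gene was not recounted on a shared input. The comparison of genotypes below uses the H3K27me3 counts alone.

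The comparison of genotypes asks how H3K27me3 at these promoters differs in cells that lack the exon 14 isoform of EZH2. The paper also reports less EZH2 protein in its ex14D-Ezh2 lines, so isoform and EZH2 level cannot be told apart here. The difference between genotypes was tested on the counts with edgeR's quasi-likelihood F-test over 14883 promoters, with TMM normalisation and Benjamini-Hochberg adjustment. Of the 9 members, 6 were higher in ex14D-Ezh2 cells at an adjusted p under 0.05 and none was lower, against 5.85% of all tested promoters higher and 3.19% lower. DESeq2 called 5 members higher and 0 lower, where over all promoters it called 657 higher and 266 lower. At an unadjusted p under 0.05, 8 members were higher and 0 lower, and no share over all promoters is given at that threshold. The members' median log2 fold change was 0.89 and that of all tested promoters -0.02.

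The largest increases were at Olig2, with a log2 fold change of 1.59 (SE 0.21, edgeR adjusted p = 1.22e-05), Neurog1, with 1.48 (SE 0.21, adjusted p = 3.15e-05), and Neurog2, with 1.45 (SE 0.21, adjusted p = 4.11e-05). Neurod2 rose by 1.26 (SE 0.20, edgeR adjusted p = 0.000107) and Atoh1 by 0.89 (SE 0.20, adjusted p = 0.00362). Olig3 passed narrowly, at 0.67 (SE 0.21, edgeR adjusted p = 0.0425), although its CPM groups overlapped, and its call was lost with DESeq2 (0.58) and without any 1 of the 4 libraries. The 3 members that did not pass were Neurod1 at 0.73 (SE 0.26, edgeR adjusted p = 0.0784), Olig1 at 0.60 (SE 0.21, adjusted p = 0.0821) and Neurog3 at 0.30 (SE 0.20, adjusted p = 0.437). Among the neurogenins, Neurog1 and Neurog2 thus passed and Neurog3 did not, and of the neighbours on chromosome 16, Olig2 passed and Olig1 did not. The differences between members were not tested.

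These changes are relative to the other promoters, because no spike-in was used and total H3K27me3 per cell cannot be read from them. By Western blot, the paper reports less total H3K27me3 in its ex14D-Ezh2 lines than in controls. Its ChIP-PCR also gave less H3K27me3 at the genes assayed, none of which is a member. A rise in the counts here therefore need not be a rise in the amount of the mark per cell, which was not measured at these promoters. With the library size alone in place of TMM, all promoters had a median of -0.47 in place of -0.02, the split over them went from 871 higher and 475 lower to 398 higher and 2130 lower, and the members' median went to 0.44, with 4 members higher (Neurog1, Neurog2, Neurod2 and Olig2) and 0 lower. Neurog3 then turned to -0.14. The distance between the members' median and that of all promoters was 0.92 with TMM and 0.91 with library size. Without control replicate 2, which left 1 control library, the only members still called were Neurog2 and Olig2, and the members' median was 1.04. The whole fit lost calls with that library, from 871 higher and 475 lower promoters to 255 and 73. Neurog1 was then at 1.27 (edgeR adjusted p = 0.0532), Neurod2 at 1.10 (adjusted p = 0.0538) and Atoh1 at 0.73 (adjusted p = 0.113). Without ex14D-Ezh2 replicate 2, 4 members passed, and Atoh1, at 0.85 (edgeR adjusted p = 0.0954), and Olig3 did not, where 429 promoters were higher and 105 lower.

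Over all tested promoters, increases were more frequent in the most strongly marked class. Of the 401 tested promoters that reached 8-fold over input in each control library, 70.6% were higher in ex14D-Ezh2 cells, with a median log2 fold change of 1.00. The members in that class were Neurog1, Neurog3, Neurod2 and Olig2, of which Neurog1, Neurod2 and Olig2 rose and Neurog3, at 0.30, did not pass. Neurog3 had the highest mean ratio over input of the 9 members in control, 13.8-fold, and the smallest change. Neurog2, Atoh1 and Olig3, which were also called, lay below that class, at a mean of 7.87-fold, 7.20-fold and 3.27-fold over input in control cells. The share of 70.6% does not cover them, and no share was counted for promoters at their level. Whether the members' increase follows from the level of the mark was not tested.

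**Figure D2:**
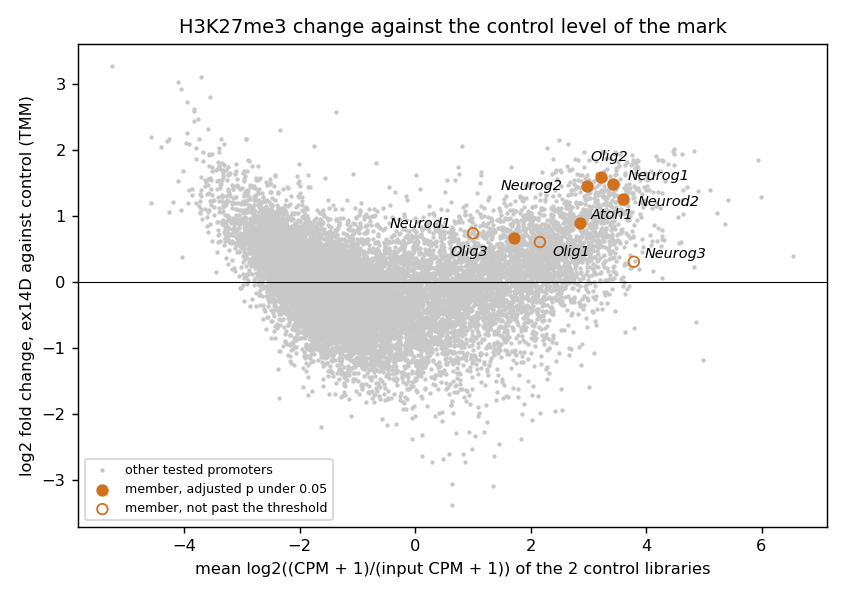
Log2 fold change of H3K27me3, ex14D-Ezh2 over control by edgeR (vertical axis), against the mean log2 ratio over input in control cells (horizontal axis); grey points are the other tested promoters, orange points the 9 genes, filled where the adjusted p was under 0.05. The 9 genes lie above 0, from 0.30 at Neurog3 to 1.59 at Olig2, and Neurog1, Neurog3, Neurod2 and Olig2 lie past 3 (8-fold) on the horizontal axis, with Neurod1 the farthest left, near 1.

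EZH2 was lower, relative to the other genes counted, at the members whose genes have counts. As for H3K27me3, no spike-in was used, so the amount of EZH2 per cell cannot be read from these counts. Neurog1 had 68.2 and 74.0 CPM of EZH2 in control and 52.0 and 40.7 in ex14D-Ezh2. Neurog2 had 97.5 and 88.7 CPM in control and 64.1 and 43.8 in ex14D-Ezh2. Both neurogenins were lower in each ex14D-Ezh2 library than in either control library. Atoh1 had 89.6 and 80.5 CPM in control and 56.8 and 40.2 in ex14D-Ezh2. Neurod1 had 11.5 and 11.95 CPM in control and 8.95 and 5.84 in ex14D-Ezh2. None of these 4 genes overlapped between genotypes, where 17.8% of 13925 genes did not overlap and were lower in ex14D-Ezh2.

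Per kilobase of gene, the EZH2 level in control cells was 40.1 and 43.4 CPM per kb at Neurog1, 39.0 and 35.5 at Neurog2 and 42.2 and 38.0 at Atoh1. Neurod1 had 2.89 and 2.99 CPM per kb, far below the others in each library. Among the genes with EZH2 counts, Neurod1 was thus lowest both in EZH2 and in H3K27me3 promoter count. In ex14D-Ezh2 cells Neurog1 was at 30.5 and 23.9 CPM per kb, Neurog2 at 25.7 and 17.5, Atoh1 at 26.8 and 18.9 and Neurod1 at 2.24 and 1.46.

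**Figure D3:**
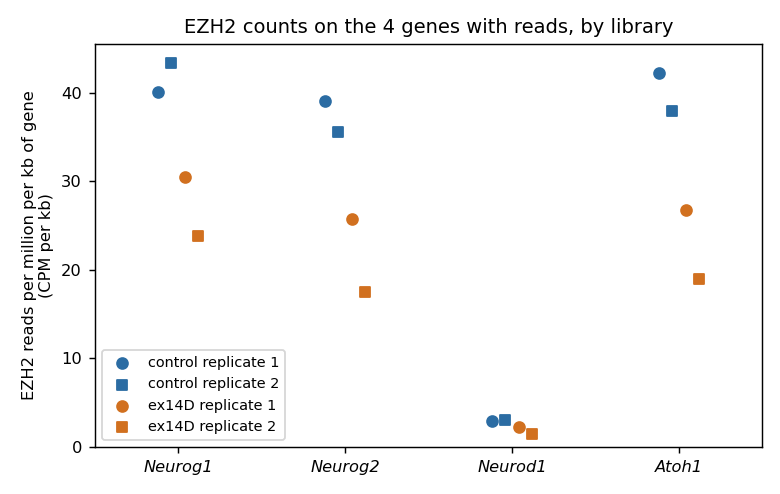
EZH2 over the 4 genes with counts, in CPM per kilobase of gene (vertical axis); points are single libraries, 2 per genotype. Both ex14D-Ezh2 libraries lie below both control libraries at Neurog1, Neurog2, Neurod1 and Atoh1, and Neurod1 is below 3 CPM per kb throughout.

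In edgeR's quasi-likelihood F-test over 13401 genes, EZH2 fell at 3 of the 4 members and rose at none, against 7.88% of all tested genes lower and 0.0522% higher. DESeq2 called 3 members lower and 0 higher, where over all genes it called 743 lower and 0 higher. At an unadjusted p under 0.05, 4 members were lower and 0 higher, and no share over all genes is given at that threshold. The log2 fold change was -0.67 at Neurog1 (SE 0.11, edgeR adjusted p = 0.0125), -0.83 at Neurog2 (SE 0.16, adjusted p = 0.0182) and -0.86 at Atoh1 (SE 0.15, adjusted p = 0.0131). Neurod1, at -0.73 (SE 0.18, edgeR adjusted p = 0.0576), did not pass. The median over the 4 members was -0.78 and that over all tested genes 0.02. Leaving out either control library lost every edgeR call, at the members and over all tested genes. The members' median was then -0.76 without control replicate 1 and -0.80 without control replicate 2. At Neurog1, Neurog2 and Atoh1, then, the EZH2 count fell relative to other genes while the H3K27me3 count rose relative to other promoters.

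**Figure D4:**
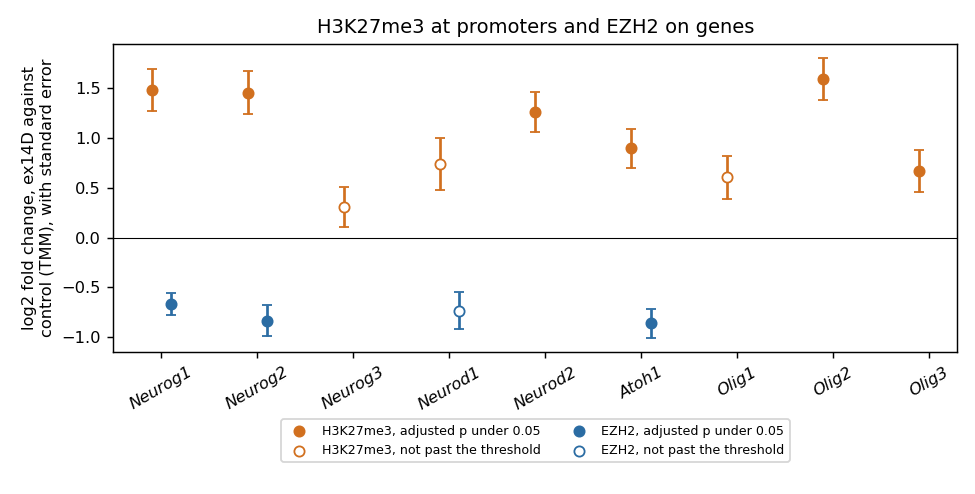
Log2 fold changes, ex14D-Ezh2 over control, for H3K27me3 at 9 promoters and EZH2 at the 4 genes with counts (vertical axis, genes along the horizontal axis), with bars of 1 standard error from edgeR; filled points passed an adjusted p of 0.05. H3K27me3 estimates run from 0.30 to 1.59 and EZH2 estimates from -0.86 to -0.67, so that these lie on opposite sides of 0 at each gene with both.

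The called intervals cover all 9 members, including the 5 without EZH2 counts. A broad H3K27me3 peak called by MACS2 overlapped the promoter window of every member in all 4 libraries, against 15.2% of 23526 genes placed on the build. An EZH2 domain did so at every member in all 4 libraries too, against 10.5%. The members' peaks were wide, with a median of 12.1 to 17.0 kb per library where the median over all peaks was 1.60 to 2.17 kb. The narrowest, at Neurod1, was still at or above the 84.7th percentile of its library.

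Neurod2 had the widest peak, 43.1 and 43.6 kb in control and 29.1 and 27.4 kb in ex14D-Ezh2. It reached 24.6 and 25.02 kb upstream of the start site in control and 15.0 and 13.8 kb in ex14D-Ezh2. The control peaks thereby held the start site of Ppp1r1b, 18761 bp away, which encodes an inhibitor of protein phosphatase 1 in dopamine-responsive neurons, and the ex14D-Ezh2 peaks did not. Ppp1r1b, named after its values were seen, had 291 and 258 CPM of H3K27me3 in control and 241 and 212 in ex14D-Ezh2. In CPM it was thus lower in both ex14D-Ezh2 libraries, whereas by edgeR with TMM its log2 fold change was 0.17 (SE 0.20, adjusted p = 0.705). The direction at Ppp1r1b therefore depended on the normalisation. Neurod2 was at 1.26 by edgeR, and the difference between the neighbours was not tested.

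Olig1 had peaks of 12.2 and 11.3 kb in control and 8.39 and 7.45 kb in ex14D-Ezh2. Olig2 had 17.8 and 21.4 kb in control and 17.6 and 17.2 kb in ex14D-Ezh2, and the peaks of Olig1 and Olig2 were separate in every library. Neurog3 was the single member with wider peaks in ex14D-Ezh2, 10.1 and 10.5 kb against 8.81 and 9.47 kb. Neurog1 had 18.5 and 21.1 kb in control and 19.8 and 19.5 kb in ex14D-Ezh2, and Neurog2 had 19.0 and 24.5 kb in control and 19.1 and 19.2 kb in ex14D-Ezh2. These widths overlapped between genotypes, as they did at Neurod1, Atoh1 and Olig3. Atoh1 had 11.6 and 17.0 kb in control and 11.7 and 11.7 kb in ex14D-Ezh2, and Olig3 had 11.6 and 14.8 kb in control and 13.2 and 12.1 kb in ex14D-Ezh2. In all, 3 members had narrower peaks in both ex14D-Ezh2 libraries (Neurod2, Olig1 and Olig2), against 38.2% of 3578 genes with a peak in every library, and the median ratio of widths was 0.888. The members' share is thus near the background, and no test was run, since 2 libraries against 2 allow no exact permutation p below 0.333.

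The EZH2 domains, whose ends fall on 1 kb steps, gave a view of Neurog3, Neurod2 and the Olig genes that the counts could not. Neurod2 had domains of 26 and 30 kb in control and 22 and 22 kb in ex14D-Ezh2. Olig3 had 12 and 12 kb in control and 7 and 9 kb in ex14D-Ezh2. Neurod1 had 6 and 6 kb in control and 3 and 4 kb in ex14D-Ezh2. At these 3 genes both ex14D-Ezh2 domains were narrower than both control domains, as they were at Neurog3 (9 and 10 kb against 8 and 6 kb) and Olig2 (17 and 17 kb against 16 and 15 kb). Neurog1 (15 and 17 kb against 14 and 19 kb), Neurog2 (17 and 18 kb against 16 and 18 kb), Atoh1 (9 and 11 kb against 9 and 9 kb) and Olig1 (5 and 7 kb against 5 and 5 kb) overlapped or were tied. The count of 5 narrower domains of 9 stood against 44.3% of 2466 genes with a domain in every library, and the median ratio was 0.833. At Neurog3, the EZH2 domain was narrower and the H3K27me3 peak wider in ex14D-Ezh2 cells.

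**Figure D5:**
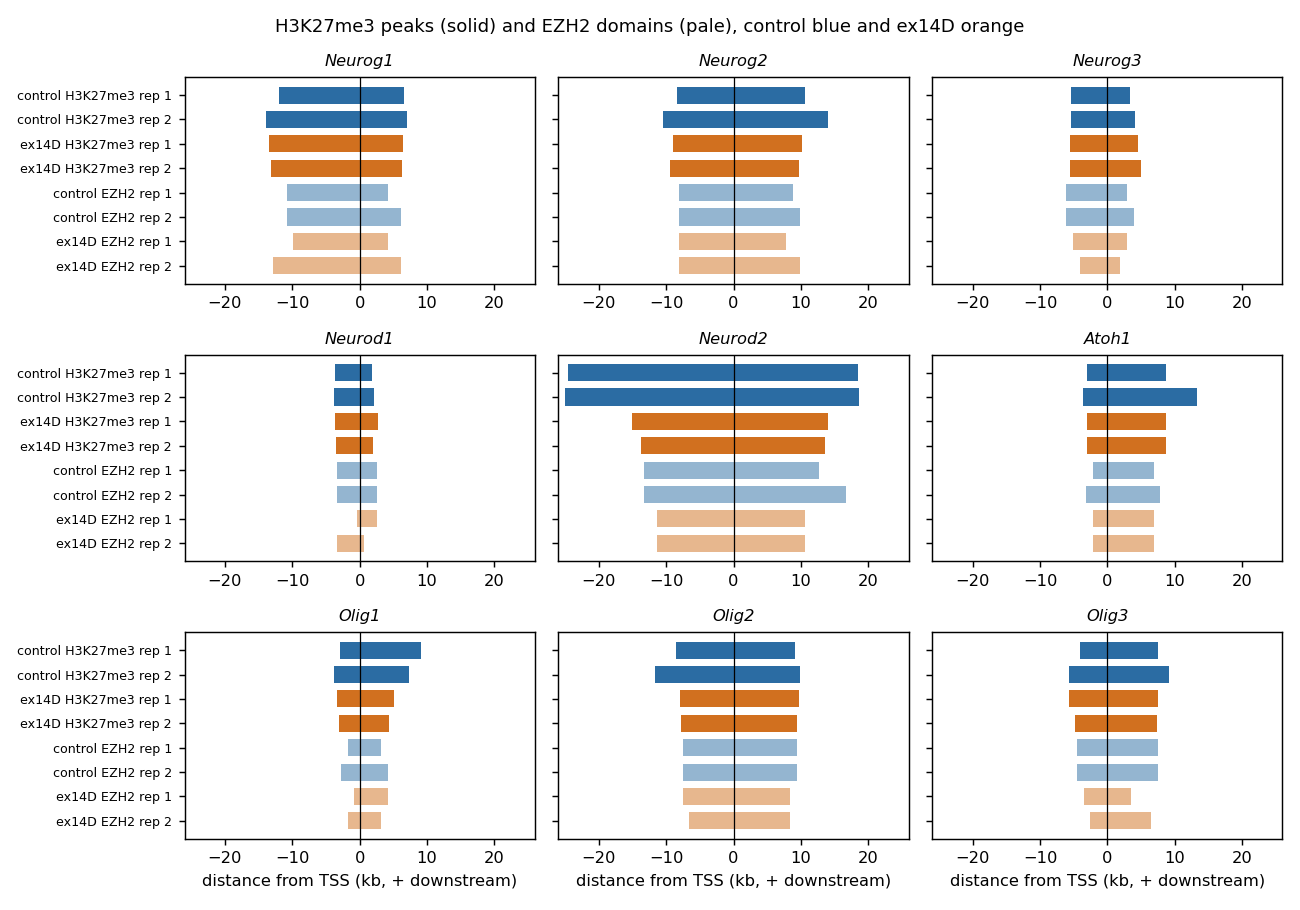
Extent of the H3K27me3 peak (solid bars) and of the EZH2 domain (pale bars) over each of the 9 promoters, as distance from the start site in kb with downstream to the right; each bar is 1 library, blue for control and orange for ex14D-Ezh2. Neurod2 has the widest intervals, 43.1 and 43.6 kb against 29.1 and 27.4 kb for the peak, and Neurod1 the narrowest peaks, between 5.48 and 6.35 kb.

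The fold enrichment that MACS2 gives each peak varied between libraries of the same genotype. At Neurog3 it was 4.75 and 4.95 in control and 8.99 and 29.1 in ex14D-Ezh2, whereas the promoter count of Neurog3 did not pass the test. At Neurod1 it was 9.17 and 8.93 in control, the highest of the members in each control library, although its promoter count was the lowest. In ex14D-Ezh2 it was 3.57 and 8.28 at Neurod1. At Atoh1 it was 2.48 and 2.92 in control and 9.88 and 3.47 in ex14D-Ezh2. Peaks at a q under 0.001 remained at 5 of 9 members in control replicate 1, without Neurog1, Atoh1, Olig1 and Olig3, and at all 9 in the other libraries. No share over all genes is given at that q. Control replicate 1 was the library with the fewest reads on promoters.

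The other genes of the pathway, taken from lists, were read in the same fits. Among 14 related bHLH genes, H3K27me3 was higher at 4 and lower at 0 by edgeR, 6 and 0 at an unadjusted p under 0.05 and 4 and 0 by DESeq2, with a median log2 fold change of 0.01. Bhlhe23, a bHLH repressor close to the Olig genes, had 601 and 544 CPM in control and 914 and 854 in ex14D-Ezh2 and rose by 1.08 (SE 0.20, edgeR adjusted p = 0.000457). EZH2 fell at 7 of the 10 tested genes of that list (8 at an unadjusted p under 0.05 and 6 by DESeq2), with a median of -0.996, and rose at 0 by any of these counts. Nhlh2, a factor of differentiating neurons, had 95.5 and 84.5 CPM of EZH2 in control and 47.0 and 26.9 in ex14D-Ezh2 (log2 fold change -1.34, SE 0.21, edgeR adjusted p = 0.0106).

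Of 17 tested genes of Notch signalling, which restrains the proneural factors, 2 were higher and 1 lower in H3K27me3, with a median of 0.12. The ligand gene Dll4 had 158 and 155 CPM in control and 270.2 and 343 in ex14D-Ezh2 (log2 fold change 1.42, SE 0.21, edgeR adjusted p = 5.05e-05). Hes1, a Notch effector, was low in all libraries, with 43.7 and 33.1 CPM in control and 6.89 and 16.8 in ex14D-Ezh2 (-1.24, SE 0.40, edgeR adjusted p = 0.0489), and DESeq2 called no gene of the list lower. EZH2 fell at 6 of 12 tested Notch genes (9 at an unadjusted p under 0.05 and 7 by DESeq2) and rose at 0 by any of these counts, with Hes5 at -1.51 (SE 0.22, edgeR adjusted p = 0.00764). Hes5 encodes another Notch effector that represses proneural genes.

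Of 5 tested genes for E proteins, the dimer partners, and Id proteins, their inhibitors, 1 was higher and 1 lower in H3K27me3, with a median of -0.34. Id3 rose from 414 and 433 to 502 and 622 CPM (log2 fold change 0.86, SE 0.20, edgeR adjusted p = 0.0055), and Id4 fell from 43.7 and 55.5 to 11.0 and 7.21 CPM (-1.98, SE 0.37, adjusted p = 0.000645). EZH2 fell at 3 of these 5 genes (4 at an unadjusted p under 0.05 and 3 by DESeq2), Id4 among them at -1.50 (SE 0.24, edgeR adjusted p = 0.00986), and rose at 0 by any of these counts. At Id4, unlike at the members with both counts, H3K27me3 and EZH2 were both lower in ex14D-Ezh2 cells. Its H3K27me3 count was low in all libraries.

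Among 20 neuronal differentiation genes, which act with or after the proneural factors, H3K27me3 was higher at 7 and lower at 2, with a median of 0.29. Barhl2, a homeobox gene of neural subtypes, had 629 and 491 CPM in control and 1176 and 1356 in ex14D-Ezh2 (1.63, SE 0.21, edgeR adjusted p = 8.25e-06), and Elavl3, a neuronal RNA-binding protein gene, had 338 and 217 CPM in control and 111 and 95.4 in ex14D-Ezh2 (-0.97, SE 0.24, adjusted p = 0.00835). EZH2 fell at 8 of 10 tested genes of that list (8 at an unadjusted p under 0.05 and 6 by DESeq2), with Barhl1 at -1.51 (SE 0.20, edgeR adjusted p = 0.00639), and rose at 0 by any of these counts. Of 12 tested oligodendrocyte lineage genes, 3 were higher in H3K27me3 and 0 lower, also at an unadjusted p and by DESeq2, with a median of 0.09. Nkx2-2, a homeobox gene of oligodendrocyte precursors, had 400.5 and 382 CPM in control and 857 and 1033 in ex14D-Ezh2 (1.72, SE 0.20, edgeR adjusted p = 3.67e-06). EZH2 fell at 4 of 7 tested genes of the lineage (4 at an unadjusted p under 0.05 and 3 by DESeq2), with Nkx6-2 at -1.17 (SE 0.20, edgeR adjusted p = 0.0139), and rose at 0 by any of these counts. The H3K27me3 median of the 9 members, 0.89, stood above that of each of these lists, and the EZH2 median of the 4 members tested, -0.78, stood among theirs. The members also carried more of the mark to begin with, at a median log2 ratio over input in control cells of 2.98 against 0.42 to 2.38 for the lists, and strongly marked promoters in general had a median change of 1.00. The differences between lists were not tested.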

How the data were processed

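H3K27me3, EZH2 and input ChIP-seq of control and ex14D-Ezh2 E14 ES cells was measured in 10 libraries. The submitters' processing notes name Trimmomatic, Bowtie2, MACS2, ChIPseeker and HTSeq with the mm10 build, and the versions are not given in the sources used here. The deposited counts are raw HTSeq reads per gene: for H3K27me3 and input they fall in 1 kb windows centred on the most 5′ start site, while the EZH2 counts follow gene length. Rows that name no gene held 98.1% of counted reads in the inputs, 92.4 to 94.4% for H3K27me3 and 55.7 to 56.1% for EZH2 and were left out. Of the EZH2 reads, 21.2 to 21.9% were ambiguous between genes. The authors called H3K27me3 peaks per library with MACS2, and the deposited peak files give fold enrichment as a ratio over a control that is not stated and q values as -log10. The EZH2 domains, called by the authors with hiddenDomains, were used for position and width. Their ends at the members fall on 1 kb steps, whereas the paper's methods state a smaller bin. The H3K27me3 domain files run past the mm10 chromosome ends and were not used here.

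Genes were tested per antibody with edgeR 4.0.16 in R 4.3.3 (4 libraries, TMM, filterByExpr, quasi-likelihood F-test, Benjamini-Hochberg threshold 0.05), with the standard error taken as the size of the log2 fold change over the root of F, and with DESeq2 1.42.0 as the alternative. Tables were handled in Python 3.11.15 with pandas 2.3.3 and numpy 2.4.6. The fit was tested on simulated data. A pseudocount of 1 CPM was used for log ratios. A promoter was called marked at 2-fold or more over the input of its genotype in both libraries. Genes named are the members, the gene with the largest rise and fall past the threshold in each list, and the 3 promoters most alike. The members and lists were chosen with earlier results of these data known. Same-numbered libraries of the genotypes did not deviate together (correlation -0.0990 for H3K27me3 and -0.0185 for EZH2), so the replicate number was not used as a block. With 1 input library per genotype, ratios to input carry the counting error of few reads. Alternatives were other normalisations, filters and pseudocounts, another tool, stricter intervals and leaving out each library.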

Additional observations from a re-analysis of the deposited data

How the results depend on the processing

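The members' median H3K27me3 log2 fold change of 0.89 was 0.44 on library size only, 0.76 when every counted read made up the library size, 0.80 with DESeq2, 0.83 without a filter on low counts and 1.04 when centred on unmarked promoters, with all promoters at -0.16 and 0.13 under all counted reads and unmarked centring, and 0.85 to 1.04 without each library in turn. The members higher were 4 with library size only, 8 with unmarked centring (Neurog3 did not pass), and 2 to 6 without each library, and with the replicate number as a block they were 5, without Olig3 (0.68). The split of all promoters was 618 higher and 581 lower with all counted reads, 1278 and 353 with unmarked centring, 657 and 266 with DESeq2, and 755 and 406 with the block. Neurog3 was -0.14 with library size only. EZH2 was lower at 0 to 4 of 4 members without each library, with a median of -1.11 to -0.53, where over all genes 0 were lower without either control library and 1561 and 1188 without ex14D-Ezh2 replicate 1 and 2, and at 3 with the block, which left 852 genes lower and 3 higher. The median log2 ratio over input was 3.83 in control and 4.40 in ex14D-Ezh2 with all counted reads, 3.42 in ex14D-Ezh2 with a pseudocount of 5 CPM, with the mean of both inputs 3.33 in control and 3.43 in ex14D-Ezh2, and 2.73 to 3.24 in control and 3.48 to 3.57 in ex14D-Ezh2 without each library. In control 8 to 9 members were marked. With peaks at a q under 0.001, 5 members had one in all 4 libraries, and no share over all genes is given at that q. Of the single-gene values under alternatives, 114 kept direction and side of the threshold, 20 no longer passed, 4 newly passed and 1 reversed. Fits without 1 library assume that the lone library varies like the other group. The cause of these changes was not tested. Few input reads limit the ratios, and each group holds 2 libraries.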
